A study of Homo sapiens with 6 samples.

Results

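The genes described here are a list of 10 genes of WNT signalling, mostly feedback regulators and targets, namely DKK1, AXIN2, RNF43, ZNRF3, LGR5, NKD1, NOTUM, TCF7, LEF1 and WNT16. They were taken by exact gene symbol from a table of 31628 genes, and each symbol matched 1 gene. All were kept whatever their level. The list holds inhibitors, a ligand, a receptor and transcription factors, and was named as WNT feedback and beta-catenin target genes from general knowledge. WNT16 stands in it as a ligand and is not taken here as a known target.

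In canonical WNT signalling a secreted WNT protein binds Frizzled and LRP receptors, and beta-catenin then escapes destruction, enters the nucleus and activates genes with the TCF/LEF factors. Several of the activated genes encode inhibitors that act on the ligand, the receptor or the destruction complex, which gives negative feedback. In the intestinal crypt this circuit maintains stem cells, and most colorectal cancers carry mutations that keep it active. HCT116, a human colon cancer line, carries an activating mutation of beta-catenin.

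All samples were HCT116 cells in which ENL (the product of MLLT1, a reader of acetylated histones) carries an auxin-inducible degron and which stably express AtAFB2, a plant F-box protein through which auxin marks the degron for breakdown. Poly(A)-selected RNA was sequenced in 6 libraries. There were 2 libraries from cells given the auxin IAA for 3 h (500 um in the labels, read here as micromolar), 2 from cells cultured in normal medium for another 48 h after the same IAA treatment and a PBS wash (washout), and 2 from cells without IAA (control). The control cells carry the degron and AtAFB2 too, and the labels do not say whether 1 clone was used. No library of untagged cells with IAA was analysed here, so loss of ENL and exposure to IAA cannot be told apart. CYP1A1, which the aryl hydrocarbon receptor induces, had a mean of 27.1 FPKM with IAA, 0.538 FPKM after washout and 0.543 FPKM in control, and the part of this response in the results below was not tested.

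The library totals by which the FPKM divide, inferred from the FPKM themselves, ran from 16442840 to 16770850 reads. Each library had 18474 to 18853 genes above 0. Levels are given as FPKM, which here divide by the whole gene span, introns included, so the FPKM of genes with long introns are low. Whole reads were therefore recovered from the FPKM and are given beside them. MLLT1 had a mean of 423.5 reads with IAA and 469.5 reads in control, and the degron acts on the protein. Of 10 markers of colon epithelium 7 had a mean of at least 1 FPKM, among them EPCAM, CDH1 and KRT8. KRT20 had a mean of 0.306 FPKM, LGALS4 had 1 read, in control replicate 1 alone, and CEACAM5 was listed at 0 in every library. The summed level of the 10 markers ran from 268.6 to 272.6 FPKM with IAA, from 324.4 to 340.1 FPKM after washout and from 336.8 to 346.6 FPKM in control. Most of the sum was KRT18 and KRT19, which stood at 0.768 and 0.802 of control with IAA, while CDH1 stood at 1.01, VIL1 at 1.24 and CDX2 at 1.34 of control. KRT20 stood at 0.566, KRT8 at 0.804 and EPCAM at 0.913 of control. The lower sum moved with the results on IAA below, and its part in them was not tested. The 12 matched markers of fibroblasts, endothelium and blood, none with a mean of 1 FPKM, summed to 0.623 and 0.854 FPKM with IAA, 0.757 and 0.799 FPKM after washout, and 0.548 and 0.554 FPKM in control. CD3E was at 0, and most of each sum was COL1A1. Their part in the results was not tested either. What a replicate number stands for is not given, so p-values measure only the spread between these samples, pooled in part over all genes. This spread may be technical. In bulk RNA fewer expressing cells and less RNA per cell cannot be told apart.

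Promoters of the 3 members that fell in both tests described below are shown first, to let their sequence be read beside their response. They are RefSeq sequences of GRCh38.p14, from 250 bases before to 50 bases after a transcription start, on the strand of the gene. RefSeq promoters were matched for 5 of the 10 members (DKK1, WNT16, RNF43, TCF7 and LEF1), 7 starts in all. Capitals mark the TCF/LEF motif, searched on both strands in 4 spellings, CTTTG followed by AT, AA, TT or TA, with no overlap between the matches shown. The DKK1 window is chr10:52314031-52314330 on the plus strand, the WNT16 window chr7:121328750-121329049 on the plus strand, and the RNF43 window chr17:58417485-58417784 on the minus strand. The WNT16 start lies inside the gene as GENCODE 29 draws it.
DKK1: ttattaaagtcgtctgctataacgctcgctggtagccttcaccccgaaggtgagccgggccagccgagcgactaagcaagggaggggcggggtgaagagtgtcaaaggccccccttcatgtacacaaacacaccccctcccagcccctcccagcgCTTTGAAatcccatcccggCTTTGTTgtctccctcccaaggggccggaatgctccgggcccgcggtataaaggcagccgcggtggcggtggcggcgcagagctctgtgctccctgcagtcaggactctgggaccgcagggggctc
WNT16: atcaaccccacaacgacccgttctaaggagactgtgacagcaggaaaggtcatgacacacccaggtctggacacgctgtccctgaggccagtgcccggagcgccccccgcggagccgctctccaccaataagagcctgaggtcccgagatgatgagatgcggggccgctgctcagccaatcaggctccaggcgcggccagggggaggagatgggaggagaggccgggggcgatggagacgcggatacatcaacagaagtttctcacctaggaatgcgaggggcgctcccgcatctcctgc
RNF43: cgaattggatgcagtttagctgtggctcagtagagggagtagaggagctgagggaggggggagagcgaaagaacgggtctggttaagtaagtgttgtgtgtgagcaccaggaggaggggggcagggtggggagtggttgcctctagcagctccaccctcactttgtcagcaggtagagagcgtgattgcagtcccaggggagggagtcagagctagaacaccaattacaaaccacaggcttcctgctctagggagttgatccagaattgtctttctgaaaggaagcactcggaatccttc
The DKK1 window held CTTTGAA with its first base 95 bases before the start and CTTTGTT with its first base 76 bases before the start. The WNT16 window and both RNF43 windows held none of the 4 spellings, and neither did the LEF1 window. Of the 2 TCF7 windows, 1 held CTTTGTT on the opposite strand, 50 bases before the start. At least 1 spelling was found in 13.8% of the 35116 promoters in the table, and the 2 of 7 member windows are given as a description. No match says only that these letters are not in the window.

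DKK1, RNF43, WNT16 and AXIN2 stood at 57.1% to 60.3% of their control level after 3 h of IAA, and ZNRF3, NOTUM and TCF7 at 82.1% to 86.1%. NKD1 stood at 118%, and LGR5 and LEF1 had 2 reads at most in any library. After washout DKK1, WNT16 and RNF43 stood higher than with IAA, at 98.7%, 87.4% and 105% of control. The comparison of IAA with control asks which of these transcripts change within 3 h of adding IAA. That of washout with IAA asks which differ 48 h after the wash. The washout cells were in culture 48 h longer, and the labels name no control matched for this time. Removal of IAA, return of ENL and time in culture therefore cannot be told apart. Each comparison was tested in 2 ways. The main one was limma on log2(FPKM + 0.1) over the 14809 genes with a mean of at least 0.1 FPKM, and 7 members entered it. The other was limma's voom on the recovered reads over 15150 genes with at least 10 reads in at least 2 libraries, and 8 members entered it. Changed means a Benjamini-Hochberg adjusted p under 0.05 over all genes tested, two-sided. Log2 changes on the FPKM scale understate the change of low genes because of the added 0.1.

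In IAA against control the main test called 8.17% of all genes changed, 3.77% lower and 4.4% higher. Of the 7 members tested 3 fell (DKK1, WNT16 and RNF43) and 0 rose. On recovered reads 23.3% of all genes changed, 9.9% lower, and 5 of 8 members fell, with AXIN2 and ZNRF3 added. Both IAA libraries were below both control libraries in 7 of the 8 members with reads in every library, against 24.2% of genes, and above them in 1 (NKD1), against 32.7% of genes. Such shares, here and in the other comparisons, are of the 14809 genes with a mean of at least 0.1 FPKM, which leave out NKD1. The median log2 change of the members was -0.56 over 7 members on the FPKM scale, beside 0.03 over all genes tested, and -0.51 over 8 members on recovered reads, beside 0.04. With 1 library left out, limma on FPKM called fewer members and also far fewer of all genes. The log2 changes on FPKM then ran from -0.79 to -0.75 for DKK1, from -0.79 to -0.65 for WNT16 and from -0.69 to -0.61 for RNF43.

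**Figure D1:**
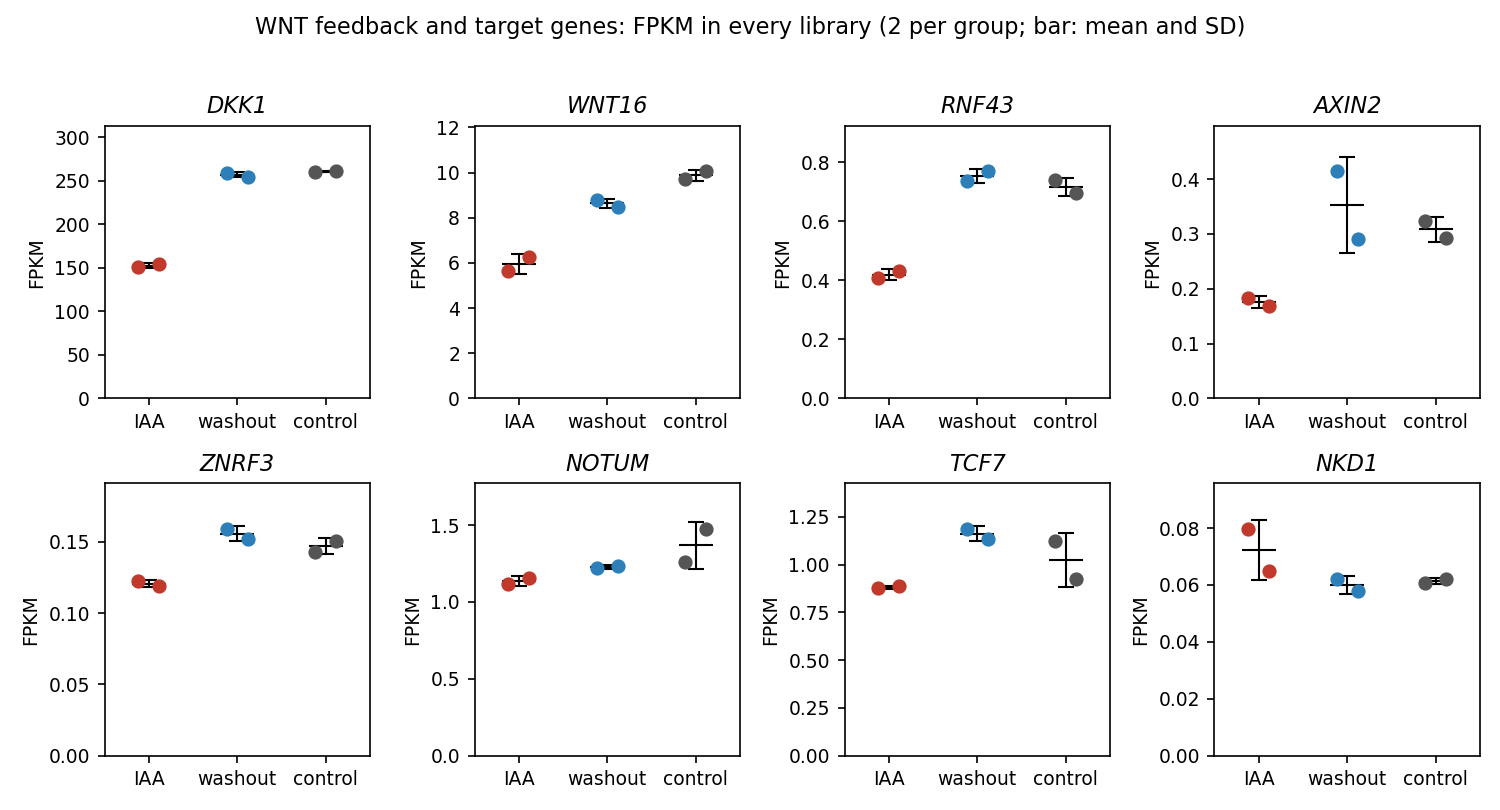
FPKM (vertical axes, each from 0) of the 8 members with reads in every library, with 1 point per library, left to right IAA, washout and control, and bars for the mean and SD (n = 2). The IAA points lie below all others in 7 panels, and above all others in that of NKD1.

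Secreted inhibitors were DKK1, which blocks LRP co-receptors, and NOTUM, which removes the lipid that WNT proteins need for activity. DKK1 (ENSG00000107984.5, chr10:52314296-52318042 in GRCh38, plus strand) had 151 and 155 FPKM with IAA, 259.7 and 255 FPKM after washout, and 260.2 and 261 FPKM in control. These values stand for 9277 and 9735 reads with IAA, 16263 and 15910 reads after washout, and 16195 and 16397 reads in control. The IAA libraries lay far below the other 4, and the 2 libraries of each group lay close together. DKK1 fell by 0.77 on the log2(FPKM + 0.1) scale with IAA (limma SE 0.03, 95% interval -0.84 to -0.70, adjusted p = 0.00488, n = 2 per group). It rose 1.68-fold in washout against IAA (log2 change 0.75, limma adjusted p = 0.00472). Both calls held on FPKM with each library left out (highest limma adjusted p 0.0335 and 0.0284). After washout it differed from control by -0.02 (95% interval -0.09 to 0.05, limma adjusted p = 0.876). A read-based change of -0.77 (voom adjusted p = 7.03e-19) has the same size, since at this level the added 0.1 has little weight. An antisense gene, PRKG1-AS1, overlaps 212 bases of DKK1 exons in GENCODE 29, and no source used here says which strand was counted.

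NOTUM (ENSG00000185269.7, chromosome 17) had 1.11 and 1.16 FPKM with IAA, 1.22 and 1.24 FPKM after washout, and 1.26 and 1.48 FPKM in control. In reads these are 171 and 181 with IAA, 190 and 192 after washout, and 195 and 231 in control. The 3 groups do not overlap, but the control libraries differ from each other by more than the lower of them differs from washout. Neither test called it in IAA against control (log2 change -0.24, limma adjusted p = 0.162, and -0.26, voom adjusted p = 0.221) or in washout against IAA (0.10, limma adjusted p = 0.489). The 95% interval of the read-based change with IAA ran from -0.57 to 0.04. It was -0.38 without control replicate 1 and -0.15 without control replicate 2 (voom adjusted p = 0.148 and 0.667), and on FPKM -0.35 and -0.14.

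WNT16, the only ligand in the list, was also the WNT ligand with the highest level per exon length. Its exon FPKM, recomputed from the reads with the exon length of GENCODE 29, was 28.7 with IAA, 41.7 after washout and 47.7 in control. WNT7B followed with an exon FPKM of 7.81 with IAA, 5.94 after washout and 5.61 in control. WNT16 (ENSG00000002745.8, chr7:121325367-121341104 in GRCh38, plus strand) had 5.65 and 6.26 FPKM with IAA, 8.79 and 8.48 FPKM after washout, and 9.70 and 10.1 FPKM in control. Its reads numbered 1462 and 1653 with IAA, 2311 and 2221 after washout, and 2535 and 2653 in control. The groups do not overlap, and washout lies between the other 2. It fell by 0.72 on the log2(FPKM + 0.1) scale with IAA (SE 0.06, 95% interval -0.89 to -0.55, limma adjusted p = 0.0164, n = 2 per group) and rose 1.45-fold in washout against IAA (limma adjusted p = 0.0245). On recovered reads the adjusted p was 1.05e-11 and 1.42e-08 by voom.

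WNT16 after washout stood at 87.4% of control. Its read-based difference from control was -0.19, with a 95% interval of -0.30 to -0.09 for this gene alone, and it did not pass after adjustment over all genes (voom adjusted p = 0.0917, and limma adjusted p = 0.566 on FPKM, n = 2 per group). With 1 library left out, the fall of WNT16 with IAA had a limma adjusted p of 0.0409 without IAA replicate 2 and of 0.0602 to 0.107 without each of the others, and its rise of 0.0676 to 0.124. On recovered reads it passed in all 6 such fits (highest voom adjusted p 5.23e-08 for the fall and 3.83e-06 for the rise).

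RNF43 and ZNRF3 are membrane ubiquitin ligases that remove Frizzled receptors from the cell surface, and LGR5 is the R-spondin receptor that marks intestinal stem cells and opposes these ligases. RNF43 (ENSG00000108375.8, chr17:58352500-58417595 in GRCh38, minus strand) had 0.406 and 0.431 FPKM with IAA, 0.737 and 0.769 FPKM after washout, and 0.738 and 0.694 FPKM in control. In reads these are 435 and 471 with IAA, 802 and 833 after washout, and 798 and 757 in control. The IAA libraries lay below the other 4, and washout and control overlapped. It fell by 0.65 on the log2(FPKM + 0.1) scale (SE 0.06, 95% interval -0.81 to -0.50, limma adjusted p = 0.0166, n = 2 per group) and by 0.77 on the log2 scale of reads (voom adjusted p = 4.15e-08). It rose 1.8-fold in washout against IAA (limma adjusted p = 0.0145, voom adjusted p = 6.23e-09). With 1 library left out, limma's adjusted p for the fall ran from 0.0602 to 0.104 and for the rise from 0.058 to 0.0951, so that neither call held on FPKM, while all 6 such fits on recovered reads passed (highest voom adjusted p 1.65e-05 and 9.48e-07). RNF43 has 7505 exon bases in GENCODE 29, and SUPT4H1, AC004687.2 and TSPOAP1-AS1 overlap them. Their overlaps add up to 5990 bases, where a base under more than 1 of these genes counts each time. Of these genes SUPT4H1 alone has a row in the table. SUPT4H1, a transcription elongation factor, had 857 and 885 reads with IAA, 863 and 904 reads after washout, and 725 and 779 reads in control.

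ZNRF3 (ENSG00000183579.11, chromosome 22) had 350 and 347 reads with IAA, 463 and 440 reads after washout, and 413 and 440 reads in control. Its IAA libraries lay below the other 4 by less than those of RNF43. The read-based change with IAA was -0.28 (95% interval -0.50 to -0.07, voom adjusted p = 0.0483) and 0.37 in washout against IAA (voom adjusted p = 0.00875). Neither passed on FPKM (limma adjusted p = 0.41 and 0.286), where its span of 173896 bases brings the level down to between 0.119 and 0.159 FPKM. On recovered reads the fall passed in 2 and the rise in 4 of the 6 fits with 1 library left out, with voom adjusted p up to 0.228 without control replicate 2 for the fall and up to 0.0667 without IAA replicate 2 for the rise. The 95% intervals of the read-based falls of RNF43 (-0.95 to -0.59) and ZNRF3 do not overlap, and the difference between the 2 genes was not tested.

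LGR5 (ENSG00000139292.8, chromosome 12) had 1 and 2 reads with IAA, 0 and 1 reads after washout, and 0 reads in both control libraries. A count of 0 allows up to 3 reads, or 0.00123 FPKM, by counting error alone (the exact two-sided 95% Poisson limit is 3.69 reads). No change of LGR5 could be detected at this depth, and none was tested.

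AXIN2 and NKD1 act inside the cell, AXIN2 as a scaffold of the beta-catenin destruction complex and NKD1 as a binder of Dishevelled. AXIN2 (ENSG00000168646.8, chr17:65528563-65561647 in GRCh38, minus strand), widely used as a readout of canonical WNT activity, had 0.184 and 0.168 FPKM with IAA, 0.414 and 0.29 FPKM after washout, and 0.324 and 0.292 FPKM in control. These are 100 and 93 reads with IAA, 229 and 160 reads after washout, and 178 and 162 reads in control. The IAA libraries lay below the other 4, and washout and control overlapped. The 2 washout libraries stood apart, with exact 95% Poisson intervals of 200.3 to 260.7 and 136.2 to 186.8 reads, which cover counting error only. On reads AXIN2 changed by -0.81 with IAA (SE 0.2, 95% interval -1.22 to -0.40, voom adjusted p = 0.00318, n = 2 per group) and by 0.98 in washout against IAA (voom adjusted p = 0.000307).

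On log2(FPKM + 0.1), where the AXIN2 level is close to the added 0.1, the changes were -0.56 (limma adjusted p = 0.116) and 0.70 (limma adjusted p = 0.075), and neither passed. The read-based calls for AXIN2 held with each library left out (highest voom adjusted p 0.0396 without control replicate 1 for the fall, and 0.0189 without washout replicate 1 for the rise). AXIN2 after washout passed against control in neither test (read-based 95% interval -0.17 to 0.51, voom adjusted p = 0.763), and the sign of this difference turned without washout replicate 1 (-0.06 on FPKM and -0.08 on reads). Exons of AXIN2 overlap 1316 bases of AC004805.1 in GENCODE 29, which has no row in the table.

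NKD1 (ENSG00000140807.4, chromosome 16) had 116 and 96 reads with IAA, 92 and 85 reads after washout, and 89 and 92 reads in control. Of the 8 members with reads in every library it was the only one with both IAA libraries above all others. The read-based change with IAA was 0.23 (95% interval -0.20 to 0.65, voom adjusted p = 0.489), so no change was detectable, and with a mean of 0.0645 FPKM it did not enter the main test.

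TCF7 and LEF1 bind DNA and carry beta-catenin to its target genes, and both genes are themselves WNT targets. TCF7 (ENSG00000081059.15, chromosome 5) had 0.876 and 0.886 FPKM with IAA, 1.19 and 1.13 FPKM after washout, and 1.12 and 0.923 FPKM in control. In reads these are 535 and 552 with IAA, 738 and 701 after washout, and 693 and 575 in control. The control libraries stood apart, and the lower of them was close to the IAA libraries. TCF7 did not pass in IAA against control (log2 change -0.19, limma adjusted p = 0.304, and -0.21, voom adjusted p = 0.113). The 2 control libraries decide the size of this value, which was -0.06 on FPKM and -0.07 on reads without control replicate 1, and -0.32 on FPKM and -0.35 on reads without control replicate 2, where voom called it (adjusted p = 0.0222). In washout against IAA the read-based change was 0.40 (95% interval 0.21 to 0.58, voom adjusted p = 0.0014), with limma adjusted p = 0.101 on FPKM. TCF7 exons overlap 210 bases of SKP1, a ubiquitin ligase subunit on the other strand, which had 1312 and 1375 reads with IAA, 1237 and 1200 reads after washout, and 1103 and 1136 reads in control. LEF1 (ENSG00000138795.5, chromosome 4) had 0 and 1 reads with IAA and 0 reads in the 2 washout and 2 control libraries, and a count of 0 allows up to 0.0015 FPKM.

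In washout against IAA the main test called 8.47% of all genes, 4.33% higher and 4.15% lower, and 3 of 7 members rose (DKK1, WNT16 and RNF43) while 0 fell. On recovered reads 24.2% of all genes changed, 11% higher and 13.1% lower, and 6 of 8 members rose, with AXIN2, ZNRF3 and TCF7 added. Both washout libraries were above both IAA libraries in 7 of 8 members, against 27% of genes, and below them in NKD1, against 30.5% of genes. This comparison shares its IAA libraries with the first, so a low IAA value moves both. With any 1 of the 6 libraries left out limma on FPKM called fewer members and also far fewer of all genes. The log2 changes on FPKM then ran from 0.73 to 0.77 for DKK1, from 0.46 to 0.60 for WNT16 and from 0.68 to 0.75 for RNF43.

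In washout against control limma called 0.182% of all genes, 0.101% higher and 0.081% lower, and 0 of 7 members, with 1 member (WNT16), and 8.54% of all genes, at an unadjusted p under 0.05. Voom called 0.607% of all genes, 0.29% higher and 0.317% lower, and 0 of 8 members, with 2 members (WNT16 below and TCF7 above control), and 11% of all genes, at an unadjusted p under 0.05. Both washout libraries were below both control libraries for DKK1, NOTUM and WNT16 (17% of genes) and above them for ZNRF3 and TCF7 (22.5% of genes).

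**Figure D2:**
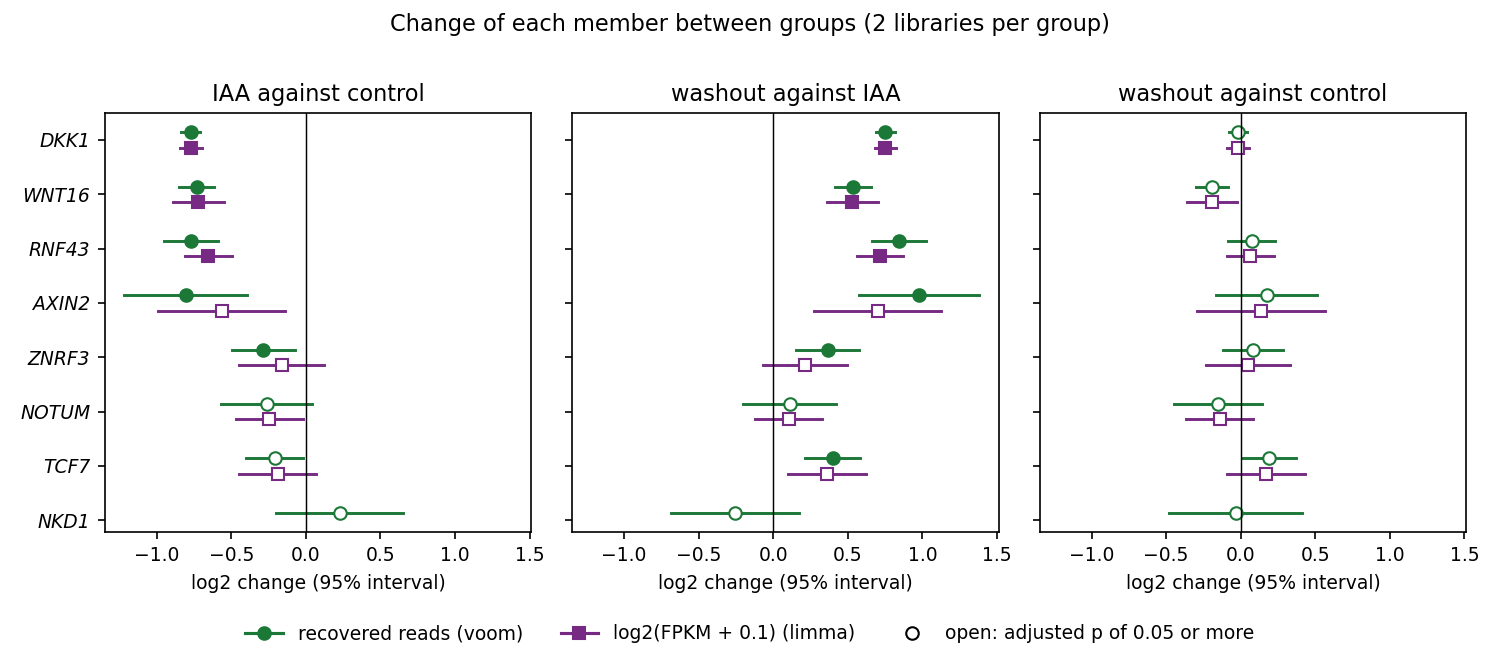
Log2 change of each member (horizontal axis, with 95% intervals) in 3 comparisons, from recovered reads by voom (circles) and from log2(FPKM + 0.1) by limma (squares), filled where the adjusted p was under 0.05. DKK1, WNT16 and RNF43 are filled in both tests for IAA against control and washout against IAA, and no symbol is filled for washout against control.

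Levels were compared between members as exon FPKM, and the exons of GENCODE 29 need not be those that were counted. DKK1 led with an exon FPKM of 259 ± 5.22 with IAA, 437 ± 5.57 after washout and 443 ± 1.02 in control (SD, n = 2). WNT16 and RNF43 followed, RNF43 (whose exons other genes overlap) at 3.63 ± 0.153 with IAA, 6.53 ± 0.193 after washout and 6.21 ± 0.272 in control. Below them in control came NOTUM (4.23 ± 0.478), TCF7 (3.78 ± 0.521) and ZNRF3 (3.67 ± 0.14). The SD of TCF7 spans the means of NOTUM and ZNRF3. AXIN2 came next at 1.95 ± 0.142 in control, followed by NKD1 at 0.311 ± 0.00528. The order of the 8 members by mean was the same with IAA as in control. After washout TCF7 (4.29 ± 0.144) and ZNRF3 (3.88 ± 0.129) had higher means than NOTUM (3.79 ± 0.0386), ZNRF3 by less than its SD. With IAA RNF43 (3.63 ± 0.153) and NOTUM (3.51 ± 0.092) did not differ beyond their spread.

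**Figure D3:**
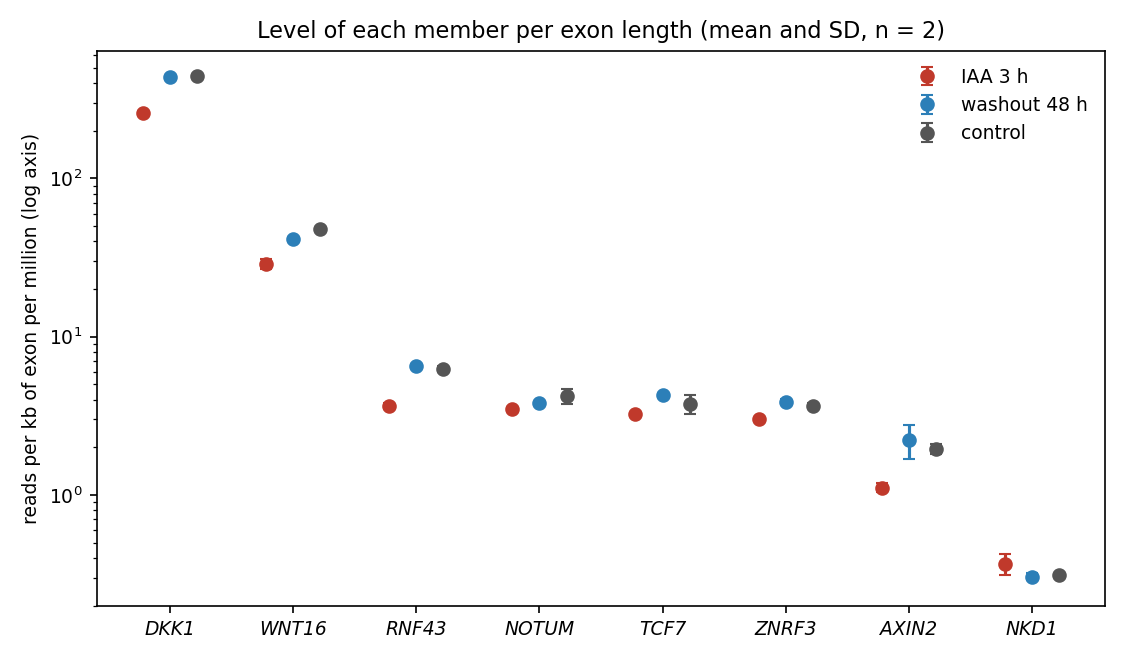
Exon FPKM, reads scaled by GENCODE 29 exon length and library total (vertical log axis), of 8 members, ordered by control level, with points for the mean and bars for the SD of 2 libraries in IAA, washout and control. Levels run from 443 for DKK1 to 0.311 for NKD1 in control, and the IAA points of RNF43, NOTUM, TCF7 and ZNRF3 lie close together.

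Among 100 other WNT pathway genes, several targets stood lower with IAA and 3 receptors higher. In IAA against control 6 rose and 8 fell of 56 tested on FPKM, and 15 rose and 14 fell of 67 on recovered reads. Over all genes tested 4.4% rose and 3.77% fell on FPKM, and 13.4% rose and 9.9% fell on recovered reads. Their median log2 change was 0.06 on FPKM (0.03 over all genes tested), where that of the 10 members was -0.56 over 7 tested. With any 1 library left out limma on FPKM called fewer of the other pathway genes, and far fewer of all genes. Other targets fell in 6 of 13 tested and rose in 2. SOX4 and SOX9, transcription factors of intestinal progenitors, stood at 0.395 and 0.52 of control, and BMP4, a secreted growth factor, at 0.487. MYC and CCND1, drivers of growth and of the cell cycle, stood at 0.57 and 0.623, and CD44, an adhesion receptor, at 0.815 (limma adjusted p from 0.00417 for SOX4 and BMP4 to 0.031 for CD44). EPHB3, a guidance receptor of crypt cells, rose 1.97-fold and JUN 1.44-fold (limma adjusted p = 0.0304 and 0.0498). SP5, a WNT-induced repressor, had 4 and 7 reads with IAA, 18 and 23 after washout and 15 and 15 in control. It passed in neither test for IAA against control (limma adjusted p = 0.0561, voom adjusted p = 0.0881).

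On the receiving side receptors rose in 3 of 11 tested and fell in 0. FZD7 had 3.21 and 3.25 FPKM with IAA and 1.44 and 1.66 FPKM in control, 2.09-fold higher (limma adjusted p = 0.0377). FZD4 had 3.36 and 3.74 FPKM with IAA and 1.88 and 1.89 FPKM in control, 1.88-fold higher (limma adjusted p = 0.0307). LGR4, the R-spondin receptor related to LGR5, had 637 and 627 reads with IAA and 406 and 396 reads in control, 1.58-fold higher in FPKM (limma adjusted p = 0.0362). On recovered reads 5 of 13 receptors rose, with FZD1 and FZD3 added, and 2 fell, FZD2 and RYK. FZD2 had 29 and 51 reads with IAA and 76 and 84 reads in control (voom adjusted p = 0.00925). Among ligands WNT9A rose 1.8-fold (limma adjusted p = 0.0256), with 411 and 414 reads with IAA and 208 and 254 reads in control, and on recovered reads WNT7B also rose and WNT3 fell.

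Of the nuclear factors 2 of 8 tested fell on FPKM. TCF7L2, the main TCF factor of the intestine, had 1212 and 1203 reads with IAA, 1736 and 1603 reads after washout, and 1847 and 1841 reads in control, and stood at 0.658 of control with IAA in FPKM (limma adjusted p = 0.0259). BCL9L, a beta-catenin co-activator, also stood at 0.658 of control (limma adjusted p = 0.0165). On recovered reads TLE1 fell too (voom adjusted p = 0.00285). PYGO2 and TLE3 rose there, and stood at 1.29 and 1.17 of control in FPKM (voom adjusted p = 0.000564 and 0.0116). The 15 cytoplasmic transducers, which include CTNNB1, APC and AXIN1, had 0 changed on FPKM, 4 at an unadjusted p under 0.05 by limma (26.9% of all genes), and 5 changed on recovered reads (TNKS, TNKS2, APC and BTRC higher, DVL1 lower). Of the 14 other antagonists 2 had a mean of at least 0.1 FPKM, KREMEN1 and KREMEN2, and neither passed in either test (limma adjusted p = 0.364 and 0.647). In washout against IAA 9 of the 56 genes rose and 5 fell on FPKM. SOX4, SOX9, BMP4, MYC, CCND1, TCF7L2 and BCL9L were among those that rose, with ETS2 and SP5, and WNT9A, FZD4, LGR4, EPHB3 and JUN were those that fell. With any 1 library left out limma called fewer of the 56 in this comparison too, and far fewer of all genes. None of the 56 changed in washout against control by limma, with 4 at an unadjusted p under 0.05 (8.54% of all genes), and none of 67 by voom, with 10 (11% of all genes).

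**Figure D4:**
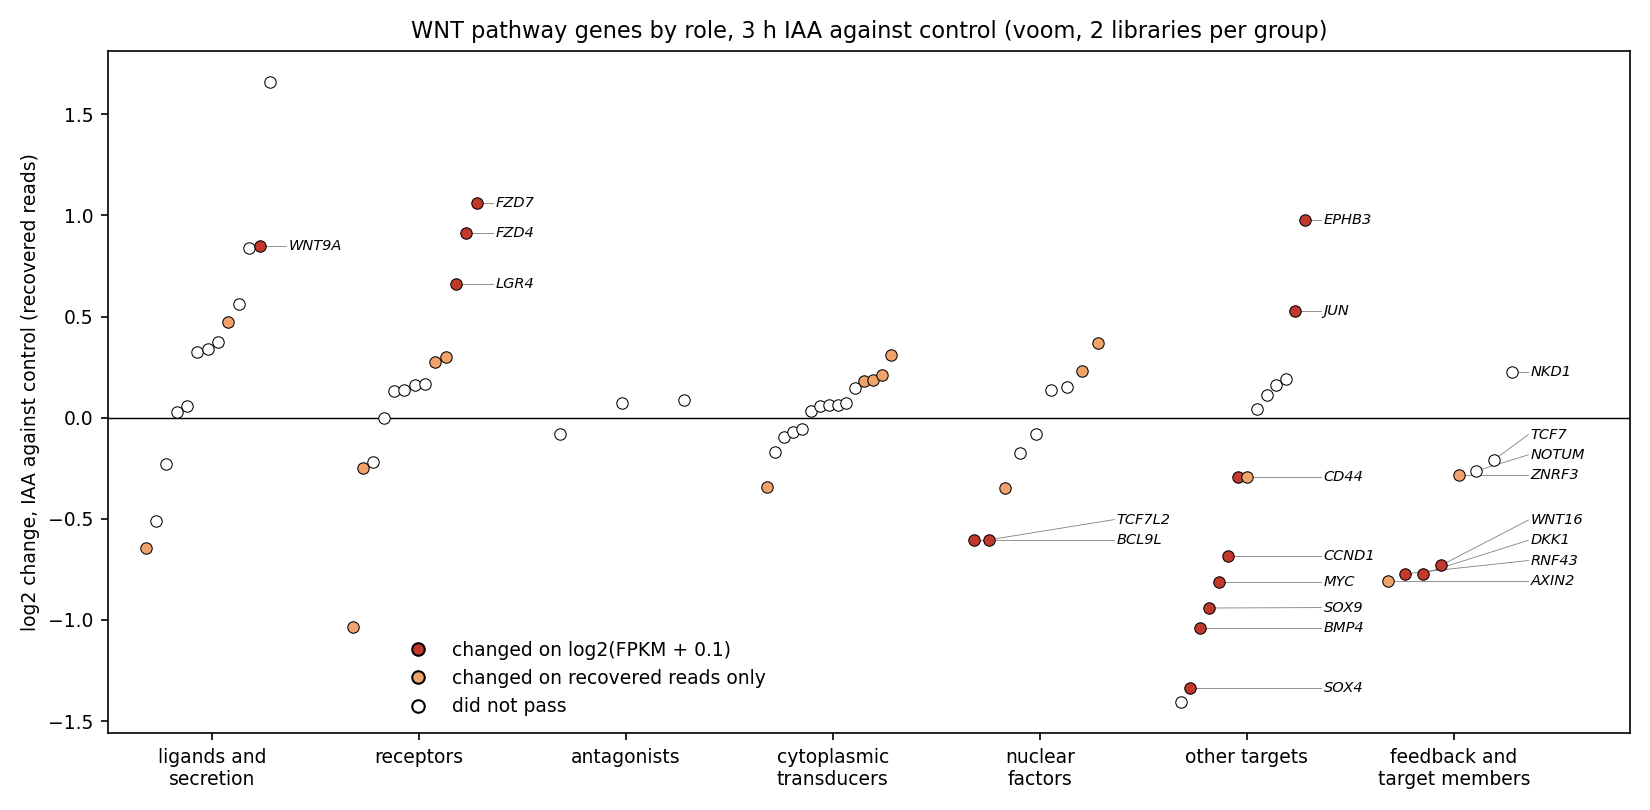
Log2 change in IAA against control on recovered reads (vertical axis) of 67 WNT pathway genes grouped by role and, at the right, of the 8 members tested. Red points changed on log2(FPKM + 0.1), orange points on recovered reads alone, and white points in neither. The members lie at or below -0.21 except NKD1 at 0.23, and 3 receptors (FZD7, FZD4, LGR4) lie at 0.66 or above.

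The genes whose pattern was most like that of DKK1 were found among 14802 others tested on FPKM, by the Euclidean distance over the 4 IAA and washout libraries of log2(FPKM + 0.1) minus its control mean. They were MYL9, a myosin light chain (distance 0.0545), BEND3 (0.0734), PITX1, a homeobox factor (0.0808), JAG1, a Notch ligand (0.0862), and LAD1 (0.0996). MYL9 had 8.67 and 9.19 FPKM with IAA, 15.7 and 15.1 FPKM after washout, and 15.3 and 16 FPKM in control. JAG1 had 2.69 and 2.75 FPKM with IAA, 5.01 and 4.63 FPKM after washout, and 4.87 and 4.85 FPKM in control. None of the 5 is on the WNT pathway list. For AXIN2 the nearest were ZNHIT2 (0.164), FAM198B (0.18), MSI1 (0.199), HR (0.208) and PRMT6 (0.21). The added 0.1 shrinks the log2 change of AXIN2 with IAA to -0.56, against -0.81 on reads. It hardly shrinks those of ZNHIT2 and PRMT6, with a mean of 10.4 and 7.38 FPKM in control. Their nearness to AXIN2 therefore holds for this scale. ZNHIT2 had 154 and 147 reads with IAA, 308 and 232 after washout, and 244 and 206 in control. With AXIN2, ZNHIT2 shares a first washout library that is higher than the second.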

How the data were processed

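The authors deposited FPKM for 31628 genes in 6 libraries, and the reads were not processed again. HISAT, Bowtie2, HTSeq, edgeR and hg19 are named, per the submitters' processing notes, without versions or roles. The annotation release was not stated. With the whole gene span of GENCODE 29 (GRCh38) as length, 82.1% of 16138 low genes gave whole reads, to within 0.02, in each of the 6 libraries, against 22.9% with the exon length, and this fixed the library totals. For other genes the nearest length that gave whole reads was used, as for NOTUM and NKD1 (9329 and 88407 bases). Reads were recovered for 99.60% of 21707 genes above 0, and 86 had no solution. They summed to between 104.2% and 104.57% of the totals, for a reason not known here.

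Tests used limma 3.58.1 in R 4.3.3, with a mean per group over all 6 libraries, 3 residual degrees of freedom and, on log2(FPKM + 0.1) of the deposited values, a trend in the prior variance (1.32 prior degrees of freedom). Voom took the spread of a gene largely from all genes. Its small p-values therefore do not rest on the spread of that gene's own libraries alone. On simulated data the test on FPKM made more false calls than its threshold allows. It also found fewer of the changed genes there than voom on recovered reads. How far this carries over to the spread and the changes in these libraries was not tested, so it does not rank the 2 tests here. Calls on FPKM may be weaker evidence than their adjusted p states, and both tests are given. Folds divide mean FPKM. Errors of levels are SD and those of log2 changes SE. The members, lists and tests were chosen with earlier results of these data known, and nothing here is independent support for those results. All members are named, with the other pathway genes that changed on FPKM in IAA against control or washout against IAA. The receptors, ligands, nuclear factors and cytoplasmic genes called by voom alone, KREMEN1, KREMEN2 and the overlapping genes were chosen after their values were seen. Intervals and floors of reads cover counting error only.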

Additional observations from a re-analysis of the deposited data

How the results depend on the processing

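The 8 alternatives to the main test, beside the replicate block and the fit on 2 groups, were pseudocount 1, a filter at a mean of 1 FPKM or none, pseudocount 1 with that filter, rescaling to TPM, median-of-ratios size factors, voom on recovered reads, and no trend in the prior variance. Over the members 444 log2 changes were recomputed in this way or with 1 library left out. The change of AXIN2 in washout against control, not called in any fit, reversed to -0.062 on FPKM and -0.082 by voom without washout replicate 1 (0.33 and 0.43 without washout replicate 2), and no other reversed. The 6 member calls were lost in 8 of 56 fits under other alternatives and in 23 of 36 on FPKM with 1 library left out, and in 0 of 36 by voom with 1 library left out. RNF43, with a mean of 0.629 FPKM, was not tested with a filter at 1 FPKM, and those fits are not among the 56. Of 192 changes under other alternatives 5 gained a call. Leaving out libraries under voom was chosen after seeing the data, and of those 126 changes 25 passed where the main test had not. Voom on recovered reads changed the counts to 3527, 3662 and 92 genes for IAA against control, washout against IAA and washout against control, to 5 and 6 members and to 29 and 29 other pathway genes in the first 2 comparisons. Fitting only the 2 groups compared gave 160, 139 and 54 genes, 1 and 1 members and 5 and 6 pathway genes. A replicate block gave 73, 77 and 0 genes, 1 and 1 members (DKK1, limma adjusted p = 0.0453 and 0.0447) and 4 and 4 pathway genes. Same-numbered replicates did not deviate together (r of 0.0576, 0.00736 and 0.0504 across genes), so the numbers were not taken as pairs. In washout against control 0 genes passed with a filter at 1 FPKM, alone or with pseudocount 1, 52 with no filter and 4 after rescaling to TPM. With 1 library left out, IAA against control gave 116 to 175 genes on FPKM and 2166 to 3687 by voom, washout against IAA 114 to 154 and 2612 to 3512, and washout against control 52 to 84 and 15 to 103. Members then numbered 1 to 5 in IAA against control and 1 to 6 in washout against IAA, and other pathway genes 4 to 31 and 2 to 29. The cause of these shifts was not tested. Scaling moved the median of all genes by under 0.1. With 2 libraries a group, and 3 reads as the floor, changes of LGR5 and LEF1 could not be measured.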
